A study of Mus musculus with 14 samples.

Results

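Expression of 9 genes of myelin and mature oligodendrocytes was examined in brain hemispheres of mice with and without cortistatin, 48 h after a transient ischemic stroke. The genes were chosen by symbol (Mbp, Mog, Mag, Cnp, Mobp, Opalin, Mal, Ermn and Ugt8a), not by a cutoff on their values. Earlier results of these data were known when they were chosen. All 9 were found among the 46904 genes of the expression table, of which 46102 were above 0 in at least 2 libraries and could be tested. RNA-seq libraries were made from poly(A) RNA of whole hemispheres of male mice on a C57BL/6J background, 12 weeks old according to the labels. The middle cerebral artery was occluded for 20 min with a filament (MCAO), and both hemispheres of such brains were sampled 48 h after stroke. The contralateral (CL) hemisphere therefore served as control, and it came from an operated animal that lived through the stroke, not from a sham-operated one. Wild-type mice (Cort+/+) gave 3 CL and 3 MCAO libraries, and mice deficient in cortistatin (Cort-/-) gave 3 CL and 5 MCAO libraries. The 3 MCAO libraries of Cort+/+ mice carry replicate numbers 2, 3 and 4. For ischemic hemispheres the paper mentions 5 biological replicates, without separating the genotypes. It adds that widely scattered replicates could be left out of a comparison as long as at least 3 remained. Whether Cort+/+ MCAO libraries were left out in this way is not given, so the spread within this group may be that of selected libraries. Levels are given as RPKM, reads scaled by gene length and by the size of the library. Being per length, they can be compared between genes as far as the length used for each gene holds.

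Oligodendrocytes wrap axons of the central nervous system in myelin, a stack of membrane that is rich in galactolipids and held together by a small set of abundant proteins. The mature cell makes these proteins and lipids at high rates, so their mRNAs mark white matter and the myelinated tracts that cross the striatum, the region supplied by the occluded artery. In stroke, oligodendrocytes are known to be sensitive to loss of oxygen and glucose, and surviving precursors can later form new myelin. Because whole hemispheres were sequenced, fewer oligodendrocytes and less mRNA per oligodendrocyte cannot be told apart in any of the values that follow.

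Stretches of DNA just upstream of 4 of the genes are shown because these genes carry the patterns described later, Mobp for its lower values in MCAO hemispheres of both genotypes, and Opalin, Ermn and Ugt8a for dropping together in the same libraries. Each was read from GRCm39 within 250 bases before the start of the Ensembl canonical transcript (GENCODE M39), leaving out bases inside any annotated exon, and is written on the strand of the gene. Capitals mark the cores of 2 motifs searched on both strands, ACAAAG, which SOX factors such as SOX10 bind, and GGGCGG, the GC box. A match on the opposite strand appears as the reverse complement.
Mobp, chr9:119978493-119978683, plus strand: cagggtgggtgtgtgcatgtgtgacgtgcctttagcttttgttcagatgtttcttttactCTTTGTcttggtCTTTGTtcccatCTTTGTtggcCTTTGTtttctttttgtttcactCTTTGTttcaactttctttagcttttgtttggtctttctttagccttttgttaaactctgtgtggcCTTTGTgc
Opalin, chr19:41065554-41065802, minus strand: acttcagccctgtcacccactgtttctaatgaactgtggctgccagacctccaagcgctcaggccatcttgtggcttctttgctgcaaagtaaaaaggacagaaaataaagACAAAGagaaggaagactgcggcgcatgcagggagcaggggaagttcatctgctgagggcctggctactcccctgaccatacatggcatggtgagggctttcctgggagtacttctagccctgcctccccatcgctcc
Ermn, chr2:57942883-57943132, minus strand: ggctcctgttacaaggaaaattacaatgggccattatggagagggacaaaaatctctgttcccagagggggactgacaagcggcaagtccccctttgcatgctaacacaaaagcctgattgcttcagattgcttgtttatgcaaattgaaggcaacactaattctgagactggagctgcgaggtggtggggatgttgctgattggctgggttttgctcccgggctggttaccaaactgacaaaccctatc
Ugt8a, chr3:125732296-125732436, minus strand: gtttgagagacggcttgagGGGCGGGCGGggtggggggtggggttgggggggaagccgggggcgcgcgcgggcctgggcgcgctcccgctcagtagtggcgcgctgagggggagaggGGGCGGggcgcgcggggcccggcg

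The upstream stretches of these genes differ widely in composition. The 250 bases before the start of Mobp hold 40.4% G and C and 7 matches of the SOX core, all on the opposite strand and so read as CTTTGT, between positions -190 and -55 relative to the start, and 6 of them lie in the stretch printed. Of 35611 genes 1, Mobp itself, had 7 or more such matches in this window (0.00281%), a count looked up after the matches had been seen. At least 1 match was found in 5 of the 9 genes (Mbp, Cnp, Mobp, Mog and Opalin) and in 16.9% of all 35611 windows. The window of Ugt8a, by contrast, holds 77.2% G and C and 3 GC boxes, of which 2 overlap, where 28.6% of all windows hold at least 1 and Mbp is the other member with a match. The MYRF core (CTGGCAC or CTGGTAC), bound by the transcription factor that drives the myelin genes, was found 2 times upstream of Cnp and 1 time upstream of Mog, against 6.22% of all windows with a match. The E-box CAGCTG was found upstream of Mbp alone (12.6% of all windows), and TATAAA upstream of none of the 9 genes (12.4%). No match of any of these motifs was found upstream of Mag, Mal or Ermn, which says only that these letters are absent from this window.

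The libraries held between 25992714 and 43036977 reads on genes, recovered from the RPKM values as whole numbers. The lowest count of any member in a library was 461 reads (Opalin), for which counting alone gives an error of 4.66%, so that the spread between libraries and not depth limits these comparisons. Cort checked the labels, with 64 to 139 reads in each Cort+/+ library and 0 to 4 in each Cort-/- library. Markers of Schwann cells, the myelinating cells of peripheral nerve, were close to absent, with a summed level of 0.418 to 1.08 RPKM over 4 genes.

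All 9 genes were expressed in every library, and their order of abundance was stable except among neighbours of similar level. Mbp, the myelin basic protein that binds the inner faces of the membrane together, was the most abundant at 354 ± 37.6 RPKM (SD, n = 14 libraries), followed by Cnp, a phosphodiesterase of the cytoplasm-filled channels of myelin, at 149 ± 9.42 RPKM. Both differences to the next gene in the order held in 14 of 14 libraries. Mal, a proteolipid that sorts membrane to myelin, Mobp, a small basic protein of compact myelin, and Mag, an adhesion protein of the innermost membrane facing the axon, had similar levels (98.3 ± 9.69, 93.2 ± 9.46 and 84.8 ± 7.59 RPKM). Mal was above Mobp in 10 of 14 libraries, and Mobp above Mag in 10 of 14, so that these neighbours were not separated. Mog, an immunoglobulin-like protein on the outer surface of the sheath, followed at 38.1 ± 3.13 RPKM and was below Mag and above Ermn in every library. Ermn, a cytoskeletal protein of late oligodendrocytes, stood at 18.9 ± 2.80 RPKM, above Ugt8a in 14 of 14 libraries, although the ranges of the 2 genes overlapped in 3 of 4 groups. Ugt8a, the enzyme that makes galactosylceramide, and Opalin, a transmembrane protein of the sheath near the nodes, were the lowest at 12.3 ± 2.94 and 10.6 ± 2.17 RPKM, with Ugt8a above Opalin in 9 of 14 libraries. Together the 9 genes took 0.389% to 0.512% of the reads of a library. The order rests on the length used for each gene in the RPKM, recovered as 2357 bases for Cnp and 2778 for Mal. All exons in GENCODE M39 cover 4049 and 2824 bases, so that the place of Cnp above Mal depends on the gene model.

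**Figure D1:**
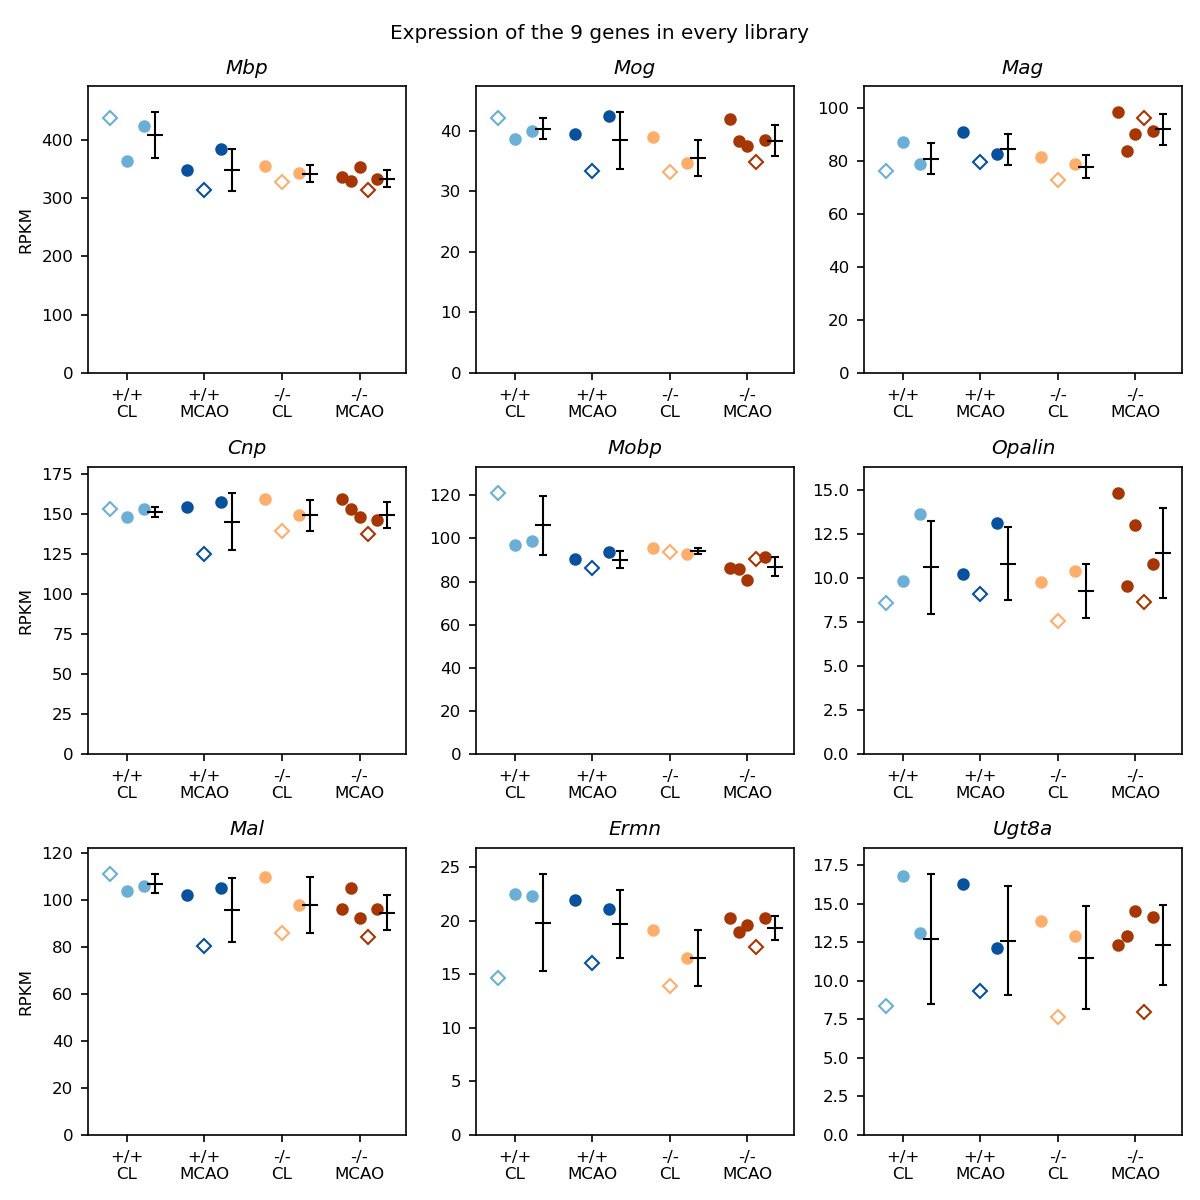
Expression (RPKM, linear axis from 0) of each of the 9 genes in the 14 libraries, by genotype (+/+ or -/-) and hemisphere (CL or MCAO). Each symbol is 1 library, open diamonds mark the library of each group with the lowest Ugt8a, and the black bar gives mean ± SD (n = 3, 3, 3 and 5); Mag of Cort-/- mice is higher in all MCAO than in all CL libraries, Mobp is lower in all MCAO than in all CL libraries of its genotype, and the open diamonds are lowest in each group for Opalin, Ermn and Ugt8a.

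The first question was whether ischemia changed the myelin genes in Cort-/- mice. Of the 9 members none passed an adjusted p of 0.05 in limma (1 had an unadjusted p under 0.05), in a comparison that called 792 of 46102 genes (1.72%). That count over all genes ran from 130 (without Cort-/- CL replicate 1) to 1180 (without Cort-/- MCAO replicate 3) with 1 library left out. Mag came closest. In CL hemispheres Mag stood at 81.4, 72.9 and 78.9 RPKM, and in MCAO hemispheres at 98.3, 83.5, 90.2, 95.9 and 91.0 RPKM. All 5 MCAO libraries lay above all 3 CL libraries. The difference was 0.24 ± 0.07 (log2 fold change ± SE, 95% interval 0.10 to 0.38), a rise in the mean from 77.7 to 91.8 RPKM, with an unadjusted p of 0.00303 and an adjusted p of 0.0976. The call depended on the analysis. With the test limited to genes that averaged 0.5 RPKM or more the adjusted p was 0.0449, with voom on the recovered reads of all 46102 genes it was 0.0444, and over all alternatives it ranged from 0.0444 to 0.415 with a log2 fold change never below 0.18. Mag lies on chromosome 7, minus strand, between positions 30598464 and 30614474 of GRCm39, and the lncRNA that overlaps it, Gm44662, had a mean of 0.187 RPKM.

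Mobp moved the other way in the same libraries. In Cort-/- mice it stood at 95.6, 93.7 and 92.8 RPKM in CL and at 86.3, 85.6, 80.7, 90.4 and 91.5 RPKM in MCAO hemispheres, so that every MCAO library was below every CL library. The difference was small, -0.12 ± 0.07 (interval -0.26 to 0.03, adjusted p = 0.541). Mag and Mobp were thus the 2 members of 9 whose hemispheres did not overlap in Cort-/- mice, while 9.11% of all genes did not overlap. All genes include many of low level, and this share was not taken for well expressed genes alone. Of the 15063 genes that averaged 1 RPKM or more, 24.6% had an unadjusted p under 0.05 in limma, against 12.7% of all genes. The ratio of Mag to Mobp within a library, which does not depend on library size, ran from 0.778 to 0.851 in CL and from 0.975 to 1.14 in MCAO hemispheres of Cort-/- mice. In Cort+/+ mice it ran from 0.628 to 0.900 and from 0.883 to 1.00, with a small overlap. This pair was picked after its values were seen, and no test is given. Mobp shares its strand with an overlapping lncRNA, Gm38642, of 31.3 RPKM, and how reads of the overlap were assigned is not given in the sources used here. Cnp and Mog likewise overlap genes on the opposite strand, Dnajc7 (30.9 RPKM) and Zfp57 (3.14 RPKM).

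The other 7 members overlapped between the hemispheres of Cort-/- mice. Opalin (0.28 ± 0.20, interval -0.14 to 0.70) and Ermn (0.23 ± 0.15, interval -0.09 to 0.55) had estimates as large as that of Mag, with larger errors. Mog had a log2 fold change of 0.11 ± 0.08 and Ugt8a of 0.12 ± 0.27. Mbp (-0.04 ± 0.07), Mal (-0.04 ± 0.10) and Cnp (-0.00 ± 0.07) were closest to 0, and the interval of Cnp, -0.16 to 0.15, held changes from -10.7% to 11.3%. The median over the 9 members was 0.11, beside 0.00 over all genes tested and -0.03 over those that averaged 1 RPKM or more. Without Cort-/- CL replicate 2 it was -0.05, so that the sign of this median rested on 1 library.

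The same comparison in Cort+/+ mice called 5 of 46102 genes (0.0108%) and none of the members, of which 2 had an unadjusted p under 0.05. With 1 library left out the count over all genes was between 3 and 159, the highest when Cort+/+ MCAO replicate 4 was dropped. The paper, with edgeR on counts, reports many more changed genes in this comparison than limma called here. Mobp again lay lower in every MCAO library, at 121, 96.9 and 98.6 RPKM in CL and 90.6, 86.3 and 93.7 RPKM in MCAO hemispheres. Its log2 fold change was -0.22 ± 0.08 (interval -0.38 to -0.06, unadjusted p = 0.012, adjusted p = 0.417). Mobp was the 1 member of 9 without overlap, beside 9.84% of all genes. Of genes that averaged 1 RPKM or more, 12.1% had an unadjusted p under 0.05 in limma, against 7.87% of all genes. CL replicate 1 was the highest Mobp library of all 14, and without it the log2 fold change was -0.12.

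Mbp had a difference of similar size in Cort+/+ mice, with 437, 363 and 424 RPKM in CL and 348, 313 and 384 RPKM in MCAO hemispheres. The log2 fold change was -0.23 ± 0.08 (interval -0.41 to -0.05, unadjusted p = 0.0159, adjusted p = 0.461), and the highest MCAO library exceeded the lowest CL library. Mal had -0.17 ± 0.11, Mog -0.08 ± 0.09, Cnp -0.06 ± 0.08 and Mag 0.06 ± 0.07. Opalin (0.03 ± 0.22), Ermn (0.01 ± 0.16) and Ugt8a (0.00 ± 0.30) had estimates near 0 with wide intervals, from -0.65 to 0.66 for Ugt8a. The median of the 9 members was -0.06, beside 0.00 over all genes and -0.02 over those that averaged 1 RPKM or more. Averaged over both genotypes, which called 1579 genes (3.43%), Mobp was at -0.17 ± 0.05 (adjusted p = 0.102) and Mag at 0.15 ± 0.05 (adjusted p = 0.137), and Mobp passed with the filter at 0.5 RPKM (adjusted p = 0.0464) and with voom (adjusted p = 0.0335). By limma over all genes 0 members passed and 3 had an unadjusted p under 0.05.

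**Figure D2:**
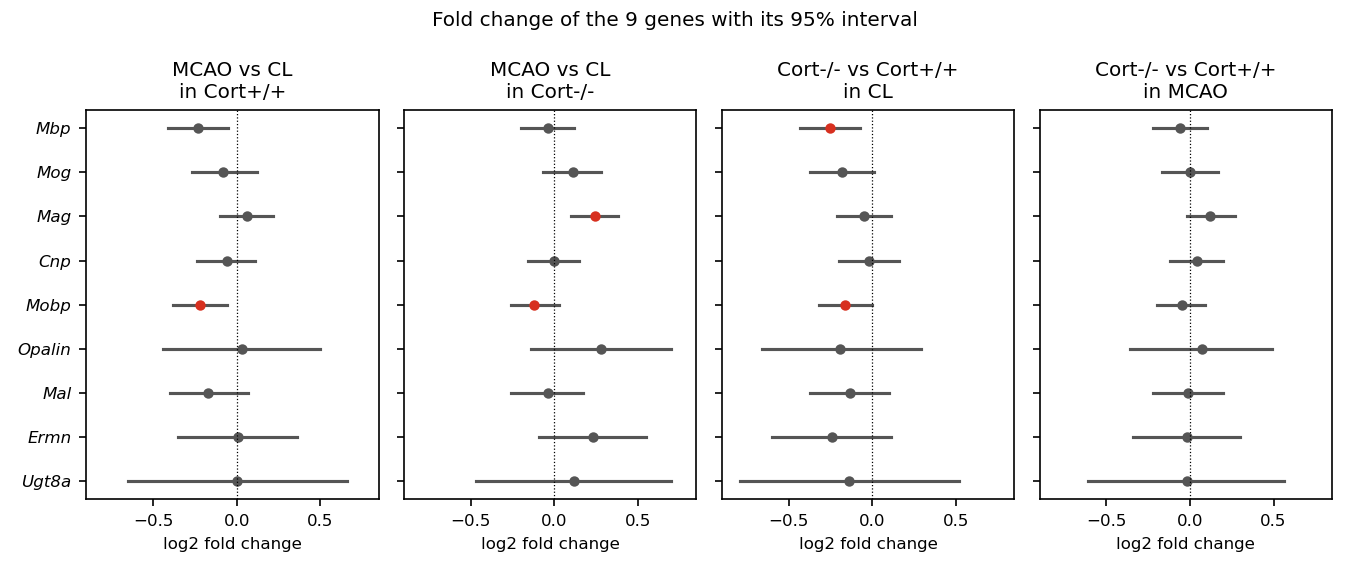
Log2 fold change of each of the 9 genes in 4 comparisons, with the 95% interval of limma as a bar. The x axis (log2(RPKM + 0.1) scale) gives MCAO minus CL or Cort-/- minus Cort+/+. Red points mark genes whose 2 groups of libraries do not overlap (Mobp in both genotypes and Mag in Cort-/- mice between hemispheres, Mbp and Mobp between genotypes in CL hemispheres), and no point passes an adjusted p of 0.05.

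Markers of other cell types were followed in the same hemispheres. In Cort-/- mice 4 of 6 markers of microglia and macrophages and 2 of 6 of astrocytes were called higher, 1 of 4 of endothelial cells was called higher, and 6 of 6 markers of striatal neurons were called lower, with a median log2 fold change of -0.96. The astrocyte markers were split, with Gfap (1.96) and Aqp4 (0.68) called higher, Aldh1l1 at 0.47, and Slc1a2 (-0.23), Slc1a3 (-0.16) and Gja1 (-0.03) below 0. None of 6 general neuron markers (median -0.13) and none of 4 markers each of choroid plexus (0.08), thalamus (-0.13), cerebellum (-0.31) and hindbrain (0.08) was called, with 2 of the neuron markers and 0 of the others at an unadjusted p under 0.05. No test compared these lists with the myelin genes. The summed level of the striatal markers fell from 221 to 236 RPKM in CL to 93.1 to 145 RPKM in MCAO hemispheres of Cort-/- mice, while the sum of the 9 myelin genes was 781 to 883 RPKM in CL and 790 to 865 RPKM in MCAO hemispheres. In Cort+/+ mice the striatal sum was 225 to 265 RPKM in CL and 118 to 198 RPKM in MCAO hemispheres (0 of 6 markers called), and the myelin sum 886 to 972 and 752 to 911 RPKM. Microglial markers summed to 84.5 to 105 and 118 to 205 RPKM in Cort+/+ mice and to 89.7 to 107 and 138 to 261 RPKM in Cort-/- mice, and astrocyte markers to 477 to 594 and 556 to 733 RPKM and to 508 to 570 and 582 to 764 RPKM. The part of these shifts in the values of the myelin genes was not tested.

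The second question was whether loss of cortistatin changed the myelin genes. In CL hemispheres, where 7 genes were called (0.0152%), none of the 9 members was, and 1 had an unadjusted p under 0.05. That gene was Mbp, with 437, 363 and 424 RPKM in Cort+/+ and 355, 327 and 343 RPKM in Cort-/- mice. Every Cort-/- library was below every Cort+/+ library. The log2 fold change was -0.25 ± 0.08 (interval -0.43 to -0.07), a mean lower by 16.0% on the fitted scale, with an unadjusted p of 0.00953 and an adjusted p of 1. Mobp also did not overlap, with 121, 96.9 and 98.6 RPKM in Cort+/+ and 95.6, 93.7 and 92.8 RPKM in Cort-/- mice (-0.16 ± 0.08, interval -0.32 to 0.00). Without Cort+/+ CL replicate 1 the estimate was -0.06, and over all 14 libraries left out in turn it ran from -0.22 to -0.06. These were 2 of 9 members, while 6.25% of all genes did not overlap.

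All 9 members had a log2 fold change below 0 in this comparison, although Mag and Cnp turned above 0 when the values were rescaled to TPM and leaving out 1 library turned 1 or 2 members (Ugt8a with Cnp without Cort-/- CL replicate 2, Ugt8a with Mag without Cort+/+ CL replicate 2, and Opalin without Cort+/+ CL replicate 3). Ermn (-0.24 ± 0.16), Opalin (-0.19 ± 0.22), Mog (-0.18 ± 0.09), Ugt8a (-0.14 ± 0.30) and Mal (-0.13 ± 0.11) had intervals that held 0, and Mag (-0.05 ± 0.07) and Cnp (-0.02 ± 0.08) were nearest to it. The median was -0.16, beside 0.00 over all genes. Genes of one cell type vary together between libraries, so that a shared sign is not 9 separate observations. The 3 Cort+/+ CL libraries also serve as the reference of the comparison between hemispheres of Cort+/+ mice, where Mbp and Mobp were lower as well, and those results are not independent.

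In MCAO hemispheres the genotypes were closer. None of the members was called and none had an unadjusted p under 0.05, in a comparison that called 8 genes (0.0174%), and all 9 overlapped, where 2.42% of all genes did not. Mbp stood at 348, 313 and 384 RPKM in Cort+/+ and 336, 329, 354, 313 and 333 RPKM in Cort-/- mice (-0.06 ± 0.07, interval -0.22 to 0.10). The largest estimate was that of Mag, 0.12 ± 0.07 (interval -0.02 to 0.27), with 90.7, 79.4 and 82.7 RPKM in Cort+/+ libraries and the 5 Cort-/- libraries between 83.5 and 98.3 RPKM. The other estimates lay between -0.05 (Mobp) and 0.07 (Opalin), and those of Mog (0.00 ± 0.08), Mal (-0.01 ± 0.10), Ermn (-0.02 ± 0.15), Ugt8a (-0.02 ± 0.27) and Cnp (0.04 ± 0.07) were within their errors. Averaged over hemispheres (31 genes called, 0.0672%), Mbp was at -0.16 ± 0.06 and Mobp at -0.11 ± 0.05 (adjusted p = 1 for both). Whether the response to ischemia differed between genotypes was tested as an interaction, which called 1 gene (0.00217%) and none of the members (0 with an unadjusted p under 0.05). The differences of the 2 responses were 0.18 ± 0.10 for Mag, 0.19 ± 0.11 for Mbp and 0.18 ± 0.12 for Mog, with a median of 0.18 over the 9 members, so that Mag rising in Cort-/- mice alone was not shown.

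Ugt8a, Opalin and Ermn varied most over the 14 libraries. The coefficient of variation was 23.9% for Ugt8a, 20.4% for Opalin and 14.8% for Ermn, against 6.3% for Cnp and 8.2% to 10.6% for the other 5 members. This order did not hold in every group, since within the 5 Cort-/- MCAO libraries Ermn varied by 5.8%, less than Mal (8.0%), Mog (6.7%) or Mag (6.2%). Ugt8a stood at 8.36, 16.8 and 13.1 RPKM in Cort+/+ CL, 16.3, 9.35 and 12.1 in Cort+/+ MCAO, 13.9, 7.68 and 12.9 in Cort-/- CL, and 12.3, 12.9, 14.5, 7.95 and 14.1 in Cort-/- MCAO hemispheres. In each group 1 library was low, namely Cort+/+ CL replicate 1, Cort+/+ MCAO replicate 3, Cort-/- CL replicate 2 and Cort-/- MCAO replicate 4, by 0.39 to 0.60 on the log2 scale below the mean of its group.

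The same 4 libraries were the lowest of their groups for Opalin and Ermn. Ermn stood at 14.6, 16.0, 13.9 and 17.5 RPKM in them and at 16.5 to 22.5 RPKM in the other 10. Opalin stood at 8.54, 9.07, 7.54 and 8.65 RPKM in them and at 9.54 to 14.8 RPKM in the other 10. Mbp, Mog, Mag, Cnp and Mal were lowest in 3 of these 4 libraries, and Mobp in 1. Thus 3 of 9 members (Ugt8a itself included, by which the libraries were picked) were lowest in all 4, beside 6 of the 30 other mature oligodendrocyte genes (20%) and 8.22% of the 15063 genes that averaged 1 RPKM or more. Highest in all 4 were 0 of the members, 2 of the 30 and 970 of the 15063. Lowest in at least 3 of the 4 were 8 of the 9 members, beside 46.7% of the 30 and 21.5% of the 15063. In Cort+/+ CL replicate 1, 5 of the 9 members (Mbp, Mobp, Mog, Mal and Cnp) went against this pattern and were the highest of their group. Mbp and Mobp had there their highest levels of all 14 libraries (437 and 121 RPKM), and the ratio of Ugt8a to Mbp ran from 0.0191 to 0.0461 within the 3 libraries of that group.

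Gfap, the intermediate filament of reactive astrocytes, was high in the same 2 CL libraries, at 132 RPKM against 37.9 and 42.8 RPKM in the others of Cort+/+ mice and at 110 RPKM against 53.0 and 55.4 RPKM in the others of Cort-/- mice. In MCAO hemispheres it was highest in the low library of Cort+/+ mice (304 RPKM against 120 and 207 RPKM) and second in that of Cort-/- mice (348 RPKM, range of the others 149 to 361 RPKM). These libraries held 36456003, 40179036, 33727559 and 40646506 reads, inside the range of the others. Of the 6 astrocyte markers only Gfap was followed by library. Their summed level is given above by group, which does not show whether the others share the pattern of Gfap. The part of astrocytes in this pattern was not tested. With the 2 CL libraries left out, Mag in Cort-/- mice was at 0.19 (adjusted p = 0.276) and Mobp in Cort+/+ mice at -0.12 (adjusted p = 0.636), and with all 4 left out these were 0.18 (adjusted p = 0.415) and -0.09 (adjusted p = 0.816).

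**Figure D3:**
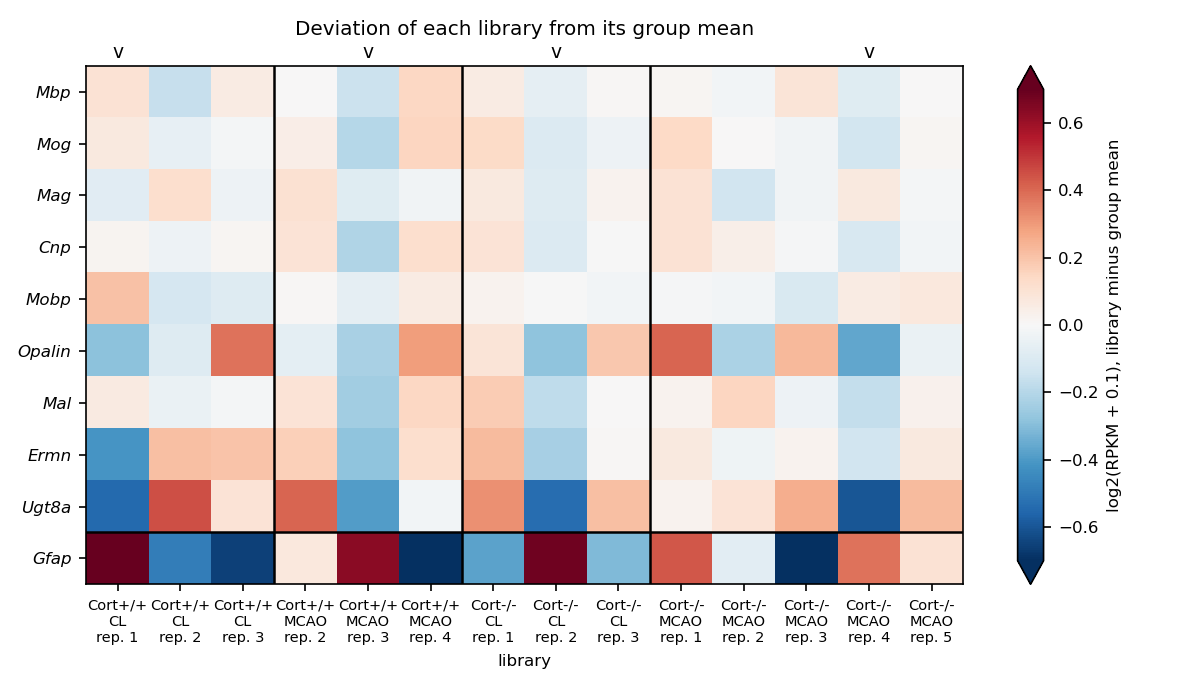
Deviation of each of the 14 libraries (columns) from the mean of its group, on the log2(RPKM + 0.1) scale, for the 9 genes and, under the black line, Gfap (rows); the colour scale ends at 0.7 in both directions and vertical lines separate the 4 groups. The marked columns are the library with the lowest Ugt8a in each group, where Ugt8a, Ermn and Opalin are blue in all 4 and Gfap is red in all 4.

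Genes were then ranked by the likeness of their pattern over the 14 libraries to the mean log2 level of the 9 members. Among 15054 genes that averaged 1 RPKM or more, Qdpr, which regenerates the cofactor tetrahydrobiopterin, Prr18, Dock5, Hdhd2, Tmem88b, Map4, Arhgef19, Dnajb2 and Hsdl2 had the highest Pearson r, between 0.86 and 0.88. With group means taken out, Slc6a9, the glycine transporter GlyT1, had the highest r (0.95), followed by Qdpr (0.94), Dnajb2, Bfsp2, Ado, Prr18, Hsdl2, Ccdc184 and Tmem126b (0.90 to 0.93). Qdpr, Prr18, Dnajb2 and Hsdl2 are in both rankings, and Qdpr and Tmem88b also belong to the list of mature oligodendrocyte genes that follows. These r describe values that share a library and its scaling, and carry no test.

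Other genes of the oligodendrocyte lineage were followed as lists. Of 30 other mature oligodendrocyte genes, 3 were called higher in MCAO hemispheres of Cort-/- mice, in a comparison that called 1.72% of all genes. There 8 (26.7%) had an unadjusted p under 0.05 in limma, with a median log2 fold change of 0.14. In Cort+/+ mice, where 0.0108% of all genes were called, 0 of the 30 were (1 with voom). There 5 had an unadjusted p under 0.05 in limma, with a median of -0.00. Of all genes that averaged 1 RPKM or more, 24.6% reached this unadjusted level in Cort-/- mice (median -0.03) and 12.1% in Cort+/+ mice (median -0.02), so that 26.7% is near the background. Klk6, a secreted serine protease of oligodendrocytes, stood at 3.20, 2.40 and 3.67 RPKM in CL and 19.8, 10.4, 10.6, 17.9 and 14.7 RPKM in MCAO hemispheres of Cort-/- mice. Its log2 fold change was 2.18 ± 0.26 (adjusted p = 0.00579). In Cort+/+ mice Klk6 stood at 2.20, 3.96 and 3.91 RPKM in CL and 9.65, 13.5 and 8.26 RPKM in MCAO hemispheres. These did not overlap, but the difference of 1.63 ± 0.29 missed the threshold in limma (adjusted p = 0.108, and 0.0444 without Cort+/+ MCAO replicate 4). The paper, which tested counts with edgeR, lists Klk6 among genes raised by ischemia in both genotypes.

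Trf, the iron carrier transferrin, which oligodendrocytes make in brain, rose by 1.05 ± 0.15 in Cort-/- mice (adjusted p = 0.00904), from 109, 102 and 111 RPKM to 277, 182, 174, 258 and 238 RPKM. In Cort+/+ mice Trf stood at 102, 137 and 108 RPKM in CL and 206, 201 and 158 RPKM in MCAO hemispheres (0.70 ± 0.17, adjusted p = 0.243). Il33, a nuclear cytokine of oligodendrocytes and astrocytes that is released on damage, rose by 0.76 ± 0.16 in Cort-/- mice (adjusted p = 0.0353), from 16.2, 14.6 and 18.2 RPKM to 30.7, 21.7, 24.6, 30.5 and 32.3 RPKM. This call was lost without any 1 of 7 libraries, 3 CL and 3 MCAO of Cort-/- mice and Cort+/+ MCAO replicate 2 (adjusted p 0.0534 to 0.132). All 3 genes did not overlap between hemispheres in either genotype, and the interaction called 0 of the 30, by limma or voom, with 0 at an unadjusted p under 0.05. Gjb1, a gap junction protein of myelin, had 0.67 ± 0.18 in Cort-/- mice (adjusted p = 0.0953), and Cryab, a small heat shock protein, 0.55 ± 0.18 (adjusted p = 0.161). In CL hemispheres 28 of the 30 genes were lower in Cort-/- mice (median -0.11, 0 called, 1 with an unadjusted p under 0.05), and 24 when rescaled to TPM. The count fell to 20 without Cort-/- CL replicate 2 and to 19 without Cort+/+ CL replicate 2, so that it depended on single libraries.

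The enzymes that supply myelin lipids were called in neither genotype. Of 14 genes, 13 had a log2 fold change above 0 in MCAO hemispheres of Cort-/- mice (median 0.12, 4 with an unadjusted p under 0.05, 0 called with voom and 1 with the filter at 0.5 RPKM) and 11 in Cort+/+ mice (median 0.08, 1 with an unadjusted p under 0.05). Fdps, which makes farnesyl diphosphate for cholesterol, had 0.29 ± 0.07 in Cort-/- mice (adjusted p = 0.058) and 0.30 ± 0.08 in Cort+/+ mice (adjusted p = 0.272), without overlap in either, and it was the 1 gene of the list called when both genotypes were averaged. Gal3st1, which turns the product of Ugt8a into sulfatide, had 0.17 ± 0.07 and -0.06 ± 0.08, and Cers2, the ceramide synthase of very long chains, 0.20 ± 0.07 and 0.07 ± 0.08. Elovl1 (0.22 ± 0.10 in Cort-/- mice) also missed the threshold.

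Of 12 transcription factors of the lineage none was called between hemispheres of Cort-/- mice (2 with an unadjusted p under 0.05, median 0.07), nor in Cort+/+ mice (0 and median -0.02), by limma or voom. Olig2 had 0.24 ± 0.08 in Cort-/- mice (adjusted p = 0.157), Sox10 0.19 ± 0.11, Olig1 0.11 ± 0.06 and Nkx2-2 0.39 ± 0.22, while Tcf7l2 had -0.24 ± 0.10. Of 15 genes of precursors and newly formed oligodendrocytes none was called (2 with an unadjusted p under 0.05 in Cort-/- mice, 0 in Cort+/+ mice, medians -0.03 and 0.04), with Bcas1, a marker of cells that begin to myelinate, at 0.34 ± 0.11 (adjusted p = 0.166), Tnr at -0.18 ± 0.06, Lhfpl3 at -0.14 ± 0.07, Neu4 at -0.25 ± 0.13 and Fyn at -0.06 ± 0.04 in Cort-/- mice. Mag is also a ligand of the Nogo receptors, which restrain axon growth. Of 10 genes of such inhibitor ligands and receptors none was called by limma or voom (2 with an unadjusted p under 0.05 in Cort-/- mice, 0 in Cort+/+ mice, medians 0.01 and 0.01), among them Rtn4r (-0.12 ± 0.06 in Cort-/- mice), Rtn4rl1 (-0.10 ± 0.07), Omg (-0.07 ± 0.07) and Tnfrsf19 (0.16 ± 0.05, adjusted p = 0.164). Rtn4rl2 was higher in Cort-/- than Cort+/+ MCAO hemispheres by 0.24 ± 0.08 (adjusted p = 1).

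**Figure D4:**
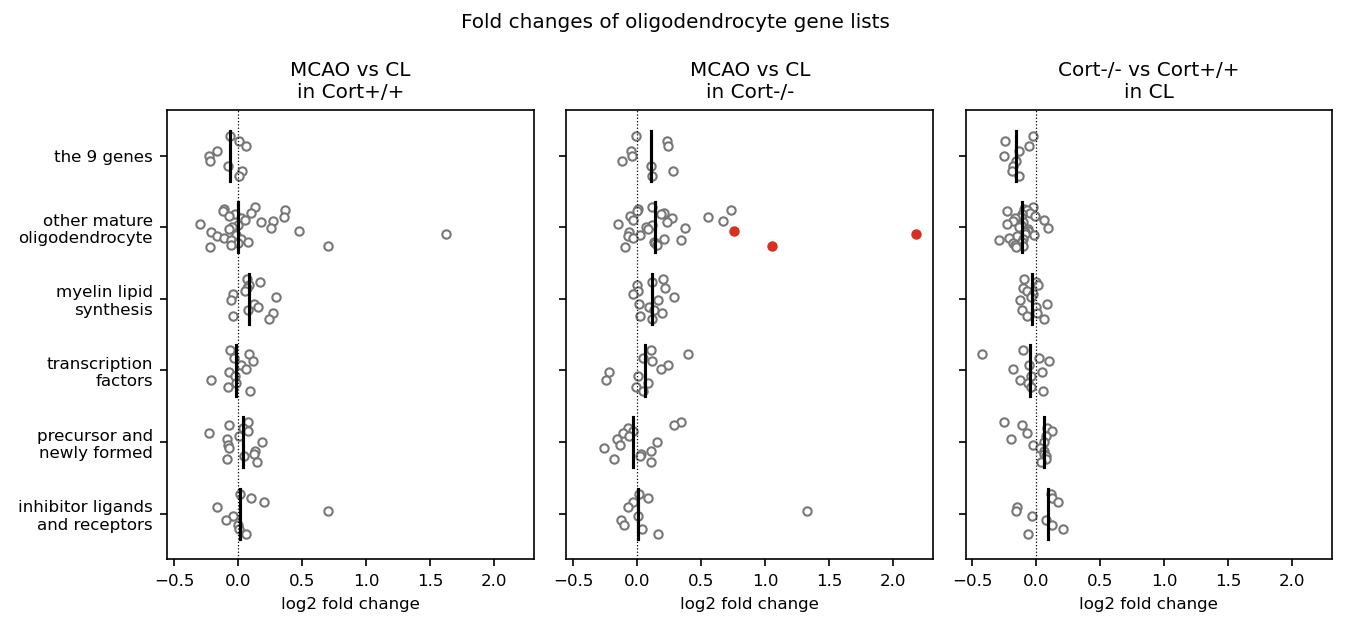
Log2 fold change (x axis, log2(RPKM + 0.1) scale) of every gene of the 9 members and of 5 lists of oligodendrocyte genes in 3 comparisons. Each circle is 1 gene, vertical bars are medians, and red circles passed an adjusted p of 0.05, which only Il33, Trf and Klk6 did, in Cort-/- mice; the 9 members have medians of -0.06, 0.11 and -0.16.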

How the data were processed

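Per the labels and the study's methods, polyA libraries from a stranded kit were sequenced, aligned to GRCm39 and counted on genes, and the authors deposited RPKM values for each library, without pooling replicates. The strand setting of the counting is not given in the sources used here. No column without a sample was found (0). Although the authors tested counts with edgeR, the deposited unit is RPKM, so log2(RPKM + 0.1) of genes above 0 in at least 2 libraries was fitted with limma (1 model of 4 groups, variance trend), with Benjamini-Hochberg adjustment over 46102 genes and a threshold of 0.05. Reads were recovered as whole numbers (tolerance 0.01 reads) from 100% of 495656 values above 0, and voom on them was an alternative. Replicates within a group are independent biological samples per the labels, so p-values measure the spread between the libraries used, moderated across genes. That spread would be understated if the Cort+/+ MCAO libraries had been chosen for their likeness, which is not given. Hemispheres were fitted as unpaired, since which of them came from the same brain is not given. Windows of 250 bases came from GRCm39 and GENCODE M39.

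The members and lists were chosen with earlier results of these data known. Named genes are the 9 members, from each list the 5 with the smallest p and a mean of at least 1 RPKM, and the 10 most alike by each measure, of which some are not reported here. Alternatives changed pseudocount, filter, scaling, variance model, library weights, block and libraries. A self-test used simulated data, with changes set in genes that averaged 1 RPKM or more and noise drawn independently for each gene and library. There limma found 88% of 2-fold and 97% of 4-fold changes between hemispheres in Cort+/+ mice, and 89% and 98% in Cort-/- mice. Of 46102 genes, 10 and 16 were called falsely. All estimates of the members were smaller than 2-fold, and the share of such changes that would be found was not tested. Python 3.11.15 was used with matplotlib 3.10.9, pandas 2.3.3, scipy 1.17.1 and numpy 2.4.6, and limma 3.58.1 was run in R 4.3.3.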

Additional observations from a re-analysis of the deposited data

How the results depend on the processing

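The values that answer a comparison are counts of calls and medians. A count was taken as kept within 1.5 times. A median was taken as kept when it moved by less than 0.13 (log2), even if its sign changed. By these rules 225 values were kept under other settings and 9 moved, and with 1 library left out 222 were kept and 2 moved. The medians of the members lay between -0.16 and 0.18, close in size to the shift allowed, so this tally says little about their sign. Of the values of single genes, 35 and 36 changed sign, 7 and 7 lost a call and 5 and 1 gained one. With the filter at a mean of 0.5 RPKM and with voom, 1 member was called in Cort-/- mice (Mag) and 1 averaged over genotypes (Mobp), and voom called 1 of the other mature genes in Cort+/+ mice. Genes called between hemispheres of Cort+/+ mice numbered 5, but 28 with the filter, 22 with a pseudocount of 0.01, 2 with a pseudocount of 1, 44 with voom and 3 to 159 with 1 library left out (159 without Cort+/+ MCAO replicate 4). In Cort-/- mice they numbered 792, but 1290 with the filter, 1276 with voom and 130 to 1180 with 1 library left out, among them 130 without CL replicate 1, 144 without CL replicate 3 and 263 without MCAO replicate 1. The shares of all genes called that stand beside the members move with these counts. Opalin, Ermn and Ugt8a, near 0 in Cort+/+ mice, turned to -0.04, -0.04 and -0.03 with library weights, and Ermn and Ugt8a to -0.00 with voom. Cnp in Cort-/- mice turned to 0.02 when rescaled to TPM or by median-ratio size factors. Between genotypes, TPM turned Mag to 0.01 and Cnp to 0.04 in CL, and Mobp to 0.00, Mal to 0.05, Ermn to 0.04 and Ugt8a to 0.03 in MCAO hemispheres, where Mal was also 0.00 by quantile normalization, 0.01 with library weights and 0.00 with voom. No scaling moved the median of all genes by more than 0.04. The cause of these changes was not tested.

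The replicate numbers were tried as a block. Deviations of libraries with the same number correlated between -0.411 and 0.316 over all groups. Between hemispheres of a genotype they correlated between -0.239 and 0.316, and the numbers were not taken as pairs. Whether CL and MCAO libraries of the same number came from 1 brain is not given in the sources used here, so a true pairing may have been ignored. With the replicate block the median of the members in Cort+/+ mice was -0.21, Opalin, Ermn and Ugt8a were each -0.26, Cnp and Mal in Cort-/- mice 0.04 and 0.00, Mog between genotypes in MCAO hemispheres -0.04, and 0 of the other mature genes were called in Cort-/- mice. That fit called 0 of all genes between hemispheres of Cort-/- mice.

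Leaving out the 2 CL libraries high in Gfap, or the 4 libraries low in Ugt8a, was chosen after seeing the data. With 2 left out the median in Cort-/- mice was -0.05, Opalin, Ermn and Ugt8a in Cort+/+ mice -0.12, -0.20 and -0.27, Ugt8a in Cort-/- mice -0.15, and Cnp between genotypes in CL 0.03. With 4 left out 1 of the other mature genes was called in Cort-/- mice (Klk6), Mog, Cnp, Opalin, Ermn and Ugt8a in Cort+/+ mice were 0.06, 0.05, -0.00, -0.06 and -0.07, Cnp between genotypes in CL 0.03, and Mog and Cnp in MCAO -0.07 and -0.04.

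With 1 library left out at a time, the median in Cort-/- mice ran from -0.05 (without CL replicate 2) to 0.17, and 0 to 1 of the other mature genes were called in Cort+/+ mice (1 without MCAO replicate 4). Log2 fold changes in Cort+/+ mice ran from -0.15 to 0.02 for Mog, -0.12 to 0.04 for Cnp, -0.12 to 0.22 for Opalin, -0.20 to 0.15 for Ermn and -0.27 to 0.23 for Ugt8a. In Cort-/- mice they ran from -0.05 to 0.04 for Cnp, -0.13 to 0.04 for Mal and -0.15 to 0.28 for Ugt8a. Between genotypes in CL they ran from -0.09 to 0.00 for Mag, -0.07 to 0.02 for Cnp, -0.33 to 0.00 for Opalin and -0.41 to 0.13 for Ugt8a. In MCAO they ran from -0.13 to 0.01 for Mbp, -0.10 to 0.08 for Mog, -0.07 to 0.10 for Cnp, -0.05 to 0.21 for Opalin, -0.13 to 0.06 for Mal, -0.16 to 0.07 for Ermn and -0.22 to 0.18 for Ugt8a. The spread of 0.13 (log2) of the members' mean between replicates, not depth, limits what 3 to 5 libraries a group can show.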
